A study of Mus musculus with 2 samples.

Results

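The Dlk1-Dio3 region of mouse chromosome 12, the counterpart of human 14q32, holds a long row of miRNA genes, and 40 mature miRNAs of this region were read on the arrays. They were chosen by name, as the spots whose name column held a listed miRNA exactly, from 1900 miRNAs on each array. Each of the 40 had 1 spot. RNA was taken from the extracellular vesicles (EVs) of blood plasma, drawn 24 h after the left femoral vessels of mice had been ligated, and 1 array was run per strain. The C57BL/6 array held a pool of 5 male C57BL/6 mice aged 8 weeks, a strain whose blood flow recovers after the ligation. The BALB/c array held a pool of 5 male BALB/c mice of the same age, a strain whose blood flow does not. All of the mice had been ligated, and no array of an unligated mouse was analysed here. The EVs were isolated with a total exosome isolation kit, and the sample labels name cells and another RNA kit as the source of the RNA. Since a single array stood for each strain, there was no replicate spread, and the strains could not be compared by a test. Below, C57BL/6 and BALB/c stand for the EV pools of these strains. Strain and array cannot be told apart, nor can fewer EVs and less miRNA per EV.

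In the mouse, most miRNAs of this region are imprinted and are made from the maternal chromosome. They lie within long noncoding transcripts that include Meg3, Rian and Mirg. Dlk1, Rtl1 and Dio3 are expressed from the paternal chromosome. A proximal run lies antisense to Rtl1, a retrotransposon-derived gene that acts in the placenta, and its miRNAs pair with the Rtl1 transcript. A longer distal run from miR-379 to miR-410 is known for its expression in brain, placenta and the embryo. A miRNA recognises its targets mainly through its seed, bases 2 to 8 from the 5′ end.

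The sequences of the members that passed detection, and of 2 undetected ones that the study names for their part in neovascularization, are shown because every result below turns on their spots. They are the mature RNAs of RefSeq (GRCm38.p6), given 5′ to 3′ in gene order with the seed in capitals, under their full names, whose species prefix mmu- is left out elsewhere.
mmu-miR-770-3p: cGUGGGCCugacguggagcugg
mmu-miR-665-3p: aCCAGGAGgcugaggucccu
mmu-miR-434-3p: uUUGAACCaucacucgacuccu
mmu-miR-370-3p: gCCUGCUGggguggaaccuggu
mmu-miR-379-5p: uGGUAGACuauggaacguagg
mmu-miR-329-3p: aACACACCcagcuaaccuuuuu
mmu-miR-494-3p: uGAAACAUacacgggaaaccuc
mmu-miR-495-3p: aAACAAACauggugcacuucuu
mmu-miR-667-3p: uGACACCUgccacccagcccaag
mmu-miR-134-5p: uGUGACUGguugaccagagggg
mmu-miR-668-3p: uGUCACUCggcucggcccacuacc
mmu-miR-154-5p: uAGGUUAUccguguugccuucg
mmu-miR-541-5p: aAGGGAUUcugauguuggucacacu
A sequence was matched for 37 of the 40 members, 19 to 25 bases long, and their 37 seeds were all different. miR-376c-3p, miR-487b-3p and miR-485-5p are named only. On the plus strand of GRCm38.p6, miR-665-3p lies at chr12:109586368-109586387, within the bounds of Rtl1, whose transcript runs on the other strand. miR-370-3p lies at chr12:109618305-109618326, within Rian, and miR-494-3p at chr12:109715367-109715388, in the distal run. Whether these stretches are exonic or intronic in the long transcripts was not analysed here.

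In C57BL/6, 11 of the 40 members (27.5%) passed detection, and in BALB/c 2 of them did (5.0%). Over all 1900 miRNAs the shares were 33.6% and 9.84%, so that both shares of the members lay below those of the array as a whole, without a test of that difference. Both strains shared 2 members (all miRNAs, 9.37%), 9 were detected only in C57BL/6 (all miRNAs, 24.2%), none only in BALB/c, and 29 in neither (all miRNAs, 65.9%). Detection was judged on the scanner's Cy5 intensity of each spot, in arbitrary units, against 896 empty BLANK spots of the same array. The threshold was set 2 SD over the mean of the BLANK spots, with the top and bottom 5% trimmed, and came to 105.6 on the C57BL/6 array (mean 98.32, SD 3.62) and 110.5 on the BALB/c array (mean 102.5, SD 4.02). The same thresholds were passed by 6.58% of all BLANK spots on both arrays, and by 5.17% (C57BL/6) and 4.6% (BALB/c) of the 174 spots with no probe. The share of members detected in BALB/c was thus close to the share of spots that carry no probe, while the share in C57BL/6 was above it. Probes differ in how well they bind, so that intensities of different miRNAs are given as distances from the BLANK spots and are not ranked as amounts.

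**Figure D1:**
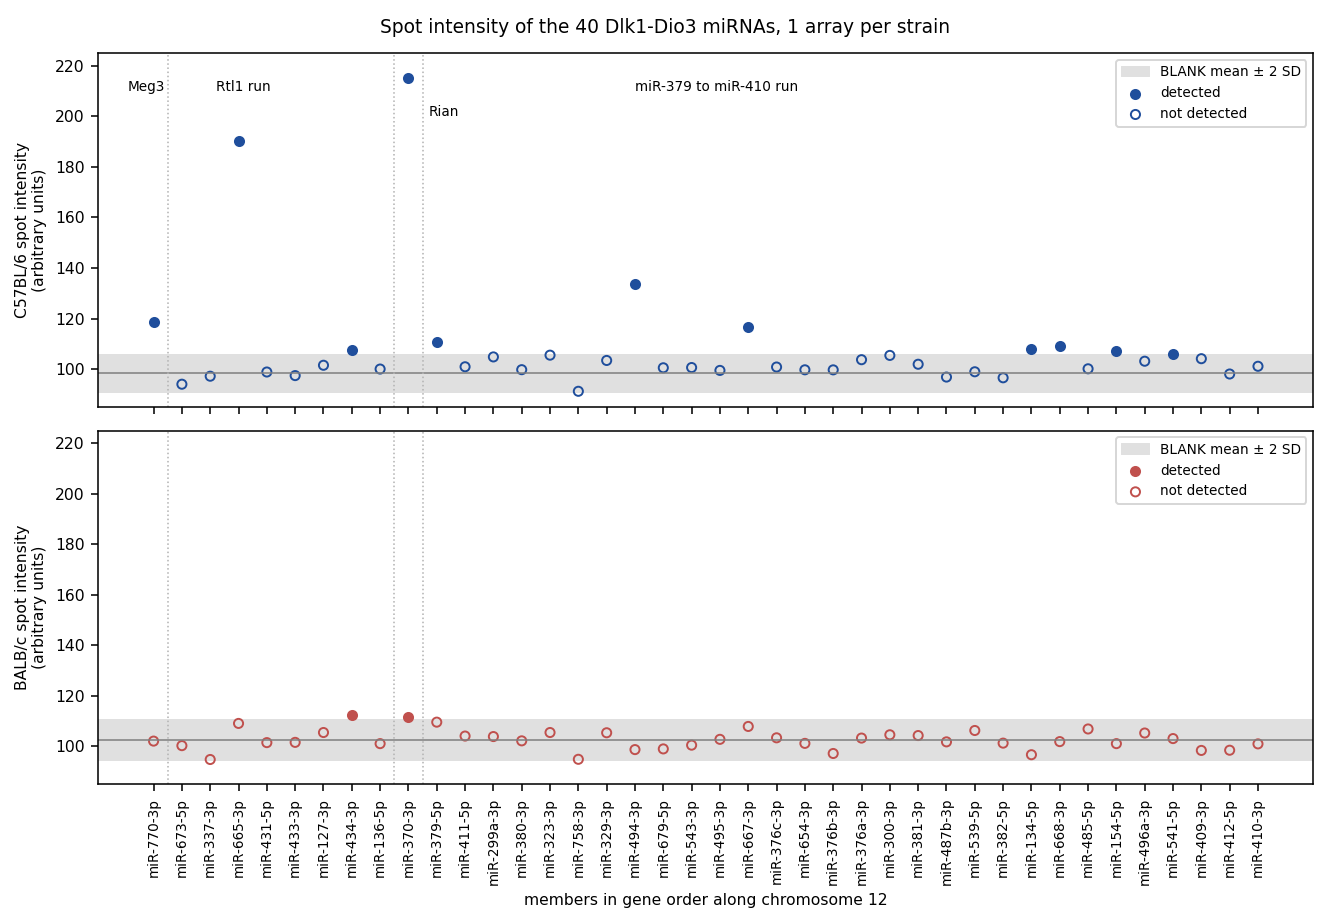
Spot intensity (arbitrary units) of the 40 members in gene order along chromosome 12 on the C57BL/6 array (top) and the BALB/c array (bottom), 1 spot each. The grey band is the BLANK mean ± 2 SD of that array, filled points are detected, and dotted lines part the 4 groups of genes. miR-370-3p and miR-665-3p stand far above the band on the C57BL/6 array, at 215.3 and 190.4, and no member does on the BALB/c array, where the highest is 112.6.

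Most members could not be told from an empty spot. In C57BL/6 the 40 intensities ran from 91.2 (miR-758-3p) through a median of 101.3 to 215.3 (miR-370-3p), and the median lay 0.82 SD above the BLANK mean. The median distance was 0.934 SD over all 1900 miRNAs and 0.347 SD over the spots with no probe. In BALB/c the members ran from 94.82 (miR-337-3p) through a median of 102.1 to 112.6 (miR-434-3p), with the median at -0.0907 SD from the BLANK mean. The median distance there was -0.424 SD over all 1900 miRNAs and 0.399 SD over the spots with no probe. On the BALB/c array, 21 of the 40 members lay below the mean of the BLANK spots, against 7 of 40 on the C57BL/6 array. The median of all miRNAs was also below that mean in BALB/c, and lower than the median of the members. For a member under the threshold, these spots give no measured level, and its absence from the EVs is not shown.

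**Figure D2:**
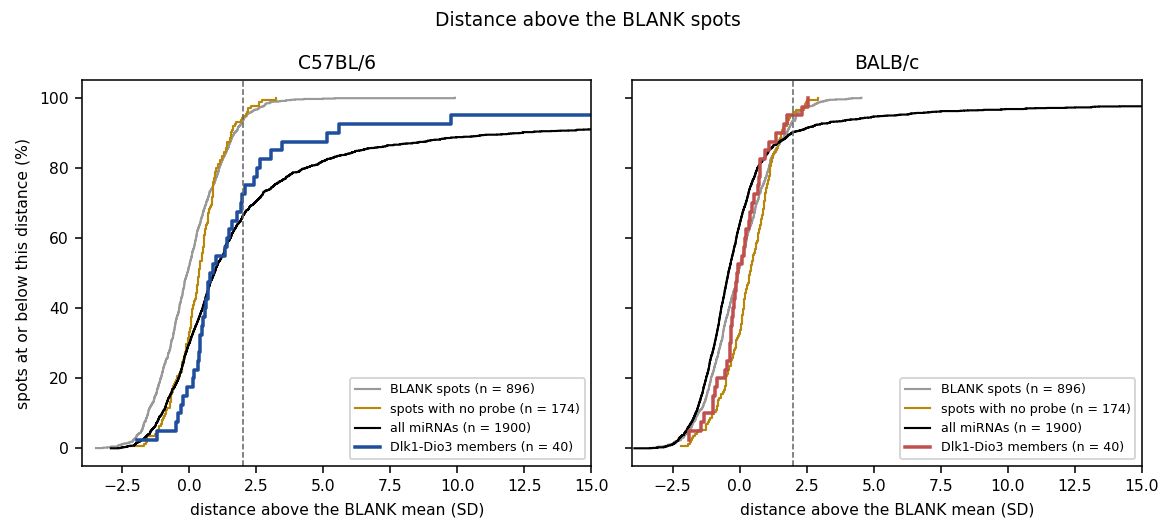
Cumulative share of spots (%) by distance above the BLANK mean, in SD of the trimmed BLANK spots, on the C57BL/6 array (left) and the BALB/c array (right). Lines show 896 BLANK spots, 174 spots with no probe, 1900 miRNAs and the 40 members, the dashed line is the threshold of 2 SD, and spots beyond 15 SD are not drawn. On the BALB/c array the members end at 2.53 SD, while the line of all miRNAs runs on.

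The 11 detected members of the C57BL/6 EVs fell into a pair of bright spots, 5 of middling height and 4 near the threshold. miR-370-3p, which in a human liver cell line acts on the fatty acid enzyme CPT1A, had an intensity of 215.3 in C57BL/6 and 111.8 in BALB/c, or 32.3 and 2.33 SD above the BLANK mean. On the C57BL/6 array the surroundings of this spot were bright as well, at 180.2, while those of the other members ran from 67.85 to 112.2. With the surroundings subtracted 35.1 units were left, 2.68 SD above the BLANK spots treated alike, and the part of the bright surroundings in its intensity was not tested. miR-665-3p had 190.4 and 109.1, or 25.4 and 1.66 SD. Its surroundings were at 112.2 on the C57BL/6 array, and 78.2 units were left over them, 10.3 SD above the BLANK spots. These were the 2 members brighter than every BLANK spot of the C57BL/6 array, of which the highest was 134.2. On the BALB/c array 0 members exceeded the brightest BLANK spot (120.7), and miR-665-3p was under the threshold. Over all miRNAs, 11.2% lay more than 10 SD above the BLANK mean in C57BL/6, as these 2 members did, and 3.21% in BALB/c, where 0 members did.

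Of the 5 members between 3 and 10 SD in C57BL/6, miR-494-3p stood highest, with an intensity of 133.7 (9.77 SD) against 98.74 in BALB/c, below the BLANK mean there. miR-770-3p, from the Meg3 end of the region, had 118.5 (5.59 SD) against 102.1. miR-667-3p had 116.8 (5.12 SD) against 107.9. All of these were under the threshold in BALB/c. miR-379-5p, which opens the distal run, had 110.8 (3.44 SD) against 109.6, so that its raw intensities on the arrays were nearly equal. The C57BL/6 spot lay just over both thresholds (105.6 and 110.5) and the BALB/c spot just under its own. miR-668-3p had 109.3 (3.04 SD) against 101.9.

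The other 4 lay 2 to 3 SD above the BLANK mean of the C57BL/6 array, where empty spots were found as well. miR-134-5p, which limits the growth of dendritic spines in rat neurons, had 107.9 (2.65 SD) in C57BL/6 and 96.71 in BALB/c. miR-434-3p, of the Rtl1 run, had 107.5 (2.53 SD) and 112.6 (2.53 SD), and was the member with the highest intensity in BALB/c. miR-154-5p had 107.1 (2.43 SD) and 101.1, and miR-541-5p 105.8 (2.06 SD) and 103.1. On the C57BL/6 array, 24 of the 896 BLANK spots were at least as bright as miR-134-5p, 30 as miR-434-3p, 31 as miR-154-5p and 49 as miR-541-5p. On the BALB/c array, 22 BLANK spots were at least as bright as miR-434-3p and 30 as miR-370-3p, its 2 detected members. Just under the C57BL/6 threshold of 105.6 were miR-323-3p at 105.5 (1.98 SD), miR-300-3p at 105.4 (1.94 SD) and miR-299a-3p at 104.8 (1.78 SD), each a fraction of an SD from being called.

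The study names 4 members of the region, miR-329, miR-487b, miR-494 and miR-495, as miRNAs whose inhibition has been tied to neovascularization in ischemic muscle. Of these 4, 1 was detected, miR-494-3p, and in C57BL/6 only. miR-329-3p had an intensity of 103.4 in C57BL/6 and 105.4 in BALB/c, or 1.39 and 0.716 SD above the BLANK mean. miR-495-3p had 99.46 and 102.8, or 0.314 and 0.0913 SD. miR-487b-3p had 96.83 and 101.8, both under the BLANK mean of their array. A further member, miR-665-3p, is among the candidates that the study took from its first screening, which used these arrays, so that this choice is no independent evidence on its values. The study's second screening, an aortic ring assay, did not retain miR-665-3p. In gene order miR-329 and miR-494 are neighbours among the members, and miR-494-3p alone of this pair passed.

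**Figure D3:**
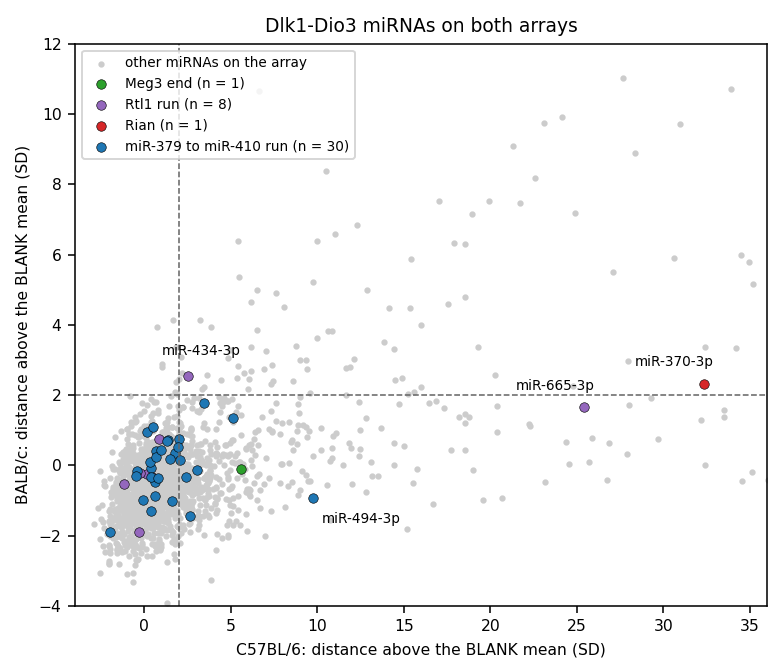
Distance above the BLANK mean (SD of the trimmed BLANK spots) on the C57BL/6 array (x axis) and the BALB/c array (y axis), 1 point per miRNA. Members are coloured by their group along the chromosome, other miRNAs are grey, dashed lines mark 2 SD, and miRNAs brighter than the axes are not drawn. miR-370-3p and miR-665-3p lie far to the right at 2.33 and 1.66 SD in BALB/c.

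By position, the detected members were spread over all 4 groups of genes. At the Meg3 end, the single member miR-770-3p was detected in C57BL/6. In the Rtl1 run, 2 of 8 members were detected there, miR-665-3p and miR-434-3p, while miR-673-5p, miR-337-3p, miR-431-5p, miR-433-3p, miR-127-3p and miR-136-5p were not, at 94.0 to 101.5 (miR-127-3p). Among them are miR-127-3p and miR-136-5p, which pair fully with the Rtl1 transcript. The detected miR-434-3p lies between miR-127-3p and miR-136-5p in gene order, so no link between such pairing and detection is read from this. In Rian, the single member miR-370-3p was detected in both strains. In the distal run from miR-379 to miR-410, 7 of 30 members (23.3%) were detected in C57BL/6 (all miRNAs, 33.6%) and 0 in BALB/c (all miRNAs, 9.84%). At the stricter threshold of 3 SD these numbers were 4 of 30 and 0 (all miRNAs, 26.1% and 7.58%). The median intensity of the distal run was 101.5 and 102.5, and that of the Rtl1 run 99.42 and 101.5, so that both runs lay close to the BLANK means of 98.32 and 102.5. The 3 members of the miR-376 family, whose primary transcripts are edited from A to I in brain, were not detected in either strain, with intensities of 99.68 (miR-376b-3p), 100.8 (miR-376c-3p) and 103.7 (miR-376a-3p) in C57BL/6. miR-410-3p, which closes the run, had 101.1 in C57BL/6 and 101.0 in BALB/c. With 1 or 8 members in the other groups, no difference between the groups was tested.

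A ratio between the strains could be formed for 2 members, and both rested on BALB/c signals close to the threshold. Scaling set the 75th percentile of the 178 miRNAs found on both arrays equal, which divided the C57BL/6 signal above background by 5.32. After this, miR-370-3p was 2.35-fold higher in C57BL/6 (log2 1.23), and moving both signals by 2 SD of the BLANK spots gave 1.19-fold to 17.8-fold. The ratio of miR-434-3p was 0.169 (log2 -2.56), with a range of 0.02 to 1.44, so that its direction was not settled within the noise of the spots. Without any scaling the ratios were 12.5 for miR-370-3p and 0.902 for miR-434-3p. In the authors' table of values, in which the detected miRNAs of either array have a median of 25, they were 15 and 1.08. miR-370-3p was the higher in C57BL/6 under each of these scalings, while miR-434-3p changed sides. These ratios take the BLANK spots as background, and with each spot's surroundings subtracted neither member passed in BALB/c, so that no ratio could be formed.

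For the 9 members detected only in C57BL/6, the ratio has only a lower bound. Its denominator was the dimmest signal still detected in BALB/c (8.08 units over background), or the member's own signal there where that was larger. miR-665-3p was at least 2.14-fold higher in C57BL/6 after scaling, at least 11.4-fold without it and at least 13.7-fold in the authors' table. With detection at 3 SD its scaled bound fell to 1.13-fold. It was the 1 member of the 9 with a bound above 1 on the scaled values. Of the 460 miRNAs that passed in C57BL/6 alone, 65 (14.1%) had such a bound. The share among the 9 members was close to that, so nothing about the members as a group is read from it. For the other 8, no bound above 1 could be given on that scale, miR-494-3p included. On the authors' scale the bounds of the 9 ran from 1.11-fold (miR-541-5p) to 13.7-fold, with 5.24-fold for miR-494-3p and 3.0-fold for miR-770-3p. That all of them exceeded 1 was fixed in advance for any miRNA detected only in C57BL/6. Even the lowest detected C57BL/6 signal on the array (7.25 units), divided by the factor of 0.834 on that scale, exceeds the denominator of 8.08 units. These bounds leave out the noise of the spots.

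**Figure D4:**
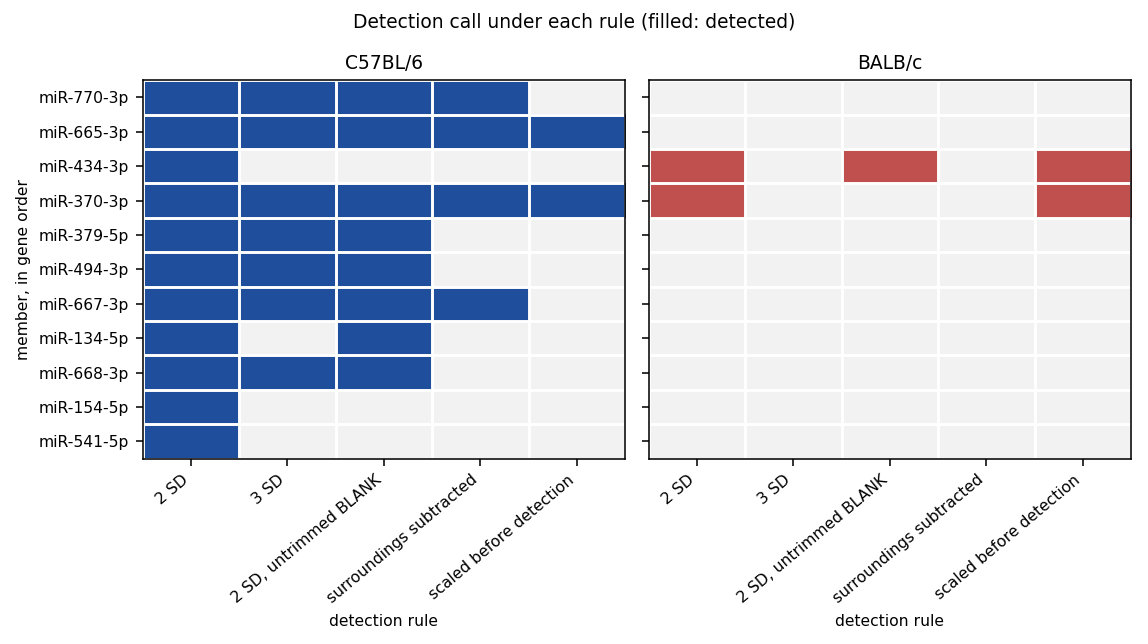
Detection call of the 11 members detected in either strain (rows, in gene order) under 5 rules (columns) on the C57BL/6 array (left) and the BALB/c array (right). A filled cell is a detected member. In C57BL/6 miR-665-3p and miR-370-3p are filled under all 5 rules, and in BALB/c no member is filled at 3 SD.

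How many members counted as detected depended on the rule, while miR-665-3p and miR-370-3p were detected in C57BL/6 under all 5 rules. At 3 SD, 7 members were detected in C57BL/6 (all miRNAs, 26.1%) and 0 in BALB/c (all miRNAs, 7.58%). With no BLANK spots left out, 8 were detected in C57BL/6 (all miRNAs, 28.5%) and miR-434-3p was the 1 detected in BALB/c (all miRNAs, 8.58%). With each spot's own surroundings subtracted, 4 were detected in C57BL/6, miR-770-3p, miR-665-3p, miR-370-3p and miR-667-3p (all miRNAs, 13.4%), and 0 in BALB/c (all miRNAs, 4.11%). miR-494-3p, with surroundings at 106.2 on the C57BL/6 array, was left with 27.5 units, 1.33 SD above the BLANK spots, and did not pass that rule. With the C57BL/6 signals divided by 5.32 before both arrays were held to the BALB/c threshold, 2 members were detected in C57BL/6 (all miRNAs, 10.4%) and 2 in BALB/c (all miRNAs, 9.84%). This rule brings the counts of the whole array close together by construction, so that nothing about the members is read from their equal counts. The part of the brighter C57BL/6 array in the larger number of members detected there was not tested.

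The detected members had more G and C in their mature sequence than the undetected ones. The median GC content was 59.1% for the 11 detected in C57BL/6 (44.0% to 72.7%) and 46.4% for the 26 undetected with a sequence (36.4% to 59.1%), a difference of 12.7 percentage points. Over the 1618 array miRNAs with a sequence, the medians were 60% and 50%, so that the difference had the same direction over the whole array. The steps below 60% were not alike. From 40% to under 50% GC, 4 of 15 members (26.7%) and 19.1% of all miRNAs were detected. From 50% to under 60%, these were 2 of 12 members (16.7%) and 30.3% of all miRNAs. All 5 members with a GC content of 60% or more were detected, namely miR-770-3p, miR-665-3p, miR-370-3p, miR-667-3p and miR-668-3p, as were 65.7% of all miRNAs in that range. Under 60%, 6 of 32 members (18.8%) and 22.9% of all miRNAs were detected. Across the 37 members, Spearman's rho between GC content and the distance above the BLANK spots was 0.385 in C57BL/6 and 0.125 in BALB/c, and across the 1618 miRNAs it was 0.46 and 0.16. These points share an array, and the probe sequences were not analysed here. The median GC content of the 37 members was 47.6%, against 52.2% over all miRNAs, and its part in the members' lower share of detection was not tested.

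**Figure D5:**
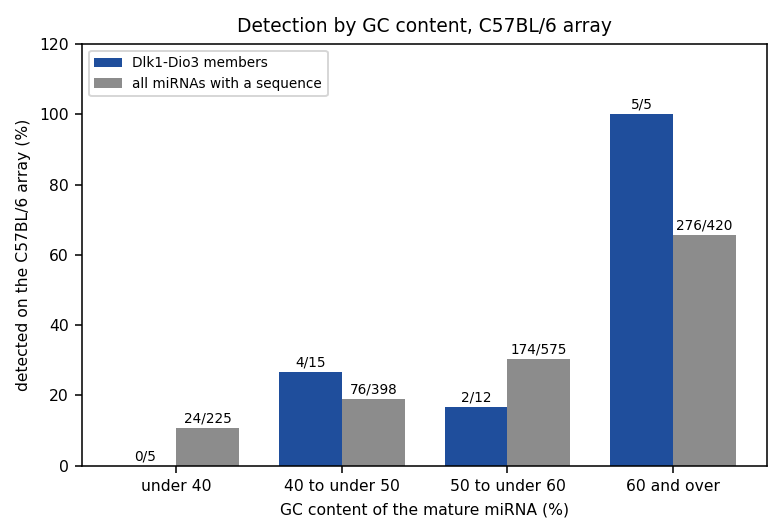
Share of miRNAs detected on the C57BL/6 array (%, y axis) by GC content of the mature sequence (x axis), for the members (blue) and all array miRNAs with a sequence (grey). The numbers over the bars are detected of all in that range. All 5 members with 60% GC or more were detected, and 0 of the 5 under 40%.

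The rest of the region was read as well, as 76 other miRNAs whose RefSeq genes lie between Dlk1 and Dio3. Of these, 39 were the other arm of a member's hairpin, and some genes lie on the minus strand. Of the 76, 15 were detected in C57BL/6 (19.7%, all miRNAs 33.6%) and 3 in BALB/c (3.95%, all miRNAs 9.84%). With the members included, 26 of 116 miRNAs of the region (22.4%) passed in C57BL/6 and 5 (4.31%) in BALB/c. Both BALB/c shares lay below the 4.6% of no-probe spots and the 6.58% of BLANK spots that passed there. Among the other arms, 6 of 39 (15.4%) were detected in C57BL/6 and 1 (2.56%) in BALB/c, likewise below the shares of all miRNAs. Both arms of a hairpin were detected in 3 cases. miR-665-5p had an intensity of 128.5 in C57BL/6 and 102.7 in BALB/c, miR-667-5p 130.2 and 106.5, and miR-541-3p 106.3 and 97.94. Both arms of miR-541 lay near the C57BL/6 threshold, miR-541-5p at 2.06 SD and miR-541-3p at 2.19 SD, where empty spots were found as well. For 8 of the 11 detected members, miR-370-3p and miR-494-3p among them, the other arm was not detected in C57BL/6, at 99.39 for miR-370-5p and 101.1 for miR-494-5p. In the other direction, miR-433-5p (120.5), miR-323-5p (118.9) and miR-380-5p (105.6, 2.01 SD) were detected in C57BL/6 while the arm among the members was not. No share over all hairpins of the array was formed beside these counts of arms. Nothing particular to the members is therefore read from them. miR-673-3p was the 1 arm detected only in BALB/c, at 112 (2.36 SD) against 104.9. Like miR-380-5p, it lay 2 to 3 SD above the BLANK mean of its array, where empty spots were found as well.

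Of the 37 miRNAs from other genes of the region, 9 (24.3%, all miRNAs 33.6%) were detected in C57BL/6 and 2 (5.41%, all miRNAs 9.84%) in BALB/c. Both of these, miR-3072-5p and miR-1247-3p, lie past miR-410 at the Dio3 side, outside the runs that hold the members. miR-3072-5p lies on the plus strand and miR-1247-3p on the minus strand. miR-3072-5p had an intensity of 2250 in C57BL/6 and 345.7 in BALB/c, and miR-1247-3p 1011 and 145.4. Both were further from the BLANK spots than any member on either array. miR-1247-3p is among the candidates of the study's first screening, so that this choice is no independent evidence on its values. The aortic ring assay of the study retained miR-1247-3p. The other arms of miR-3072 and miR-1247 were detected in C57BL/6 only. miR-3072-3p was at 125.9 against 107.5. miR-1247-5p was at 105.8 (2.06 SD) against the higher raw intensity of 107.4 in BALB/c, under the threshold there. Between the Rtl1 run and miR-379, miR-1188-3p had 119.9 and miR-341-3p 110.2 in C57BL/6, and neither was detected in BALB/c. miR-666-5p (111.7 and 99.75) and miR-3070-5p (106.0, 2.11 SD, and 104.0) were detected in C57BL/6 only. So was miR-377-3p, at 105.7 (2.04 SD), although its raw intensity was higher in BALB/c, at 106.8. miR-1247-5p, miR-3070-5p and miR-377-3p thus lay 2 to 3 SD above the C57BL/6 BLANK mean, where empty spots were found as well.

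Beside 2 other miRNA clusters of the mouse, the members held a middle place in detection. Of 71 miRNAs of the Sfmbt2 intron cluster (miR-297, miR-466, miR-467 and miR-669), 8 (11.3%) were detected in C57BL/6 and 0 in BALB/c, with a median GC content of 38.6%. Of 28 miRNAs of the miR-17-92 cluster and its paralogs, which act in growth and blood cell formation, 18 (64.3%) and 10 (35.7%) were detected, with a median GC content of 47.8%, close to the 47.6% of the members. None of these differences was tested, since miRNAs of 1 cluster are not replicates. Among markers of the cells that could feed plasma EVs, the 3 of red blood cells were detected in both strains, miR-451a at 4180 in C57BL/6 and 1603 in BALB/c, miR-144-3p at 235.0 and 159.5 and miR-486a-5p at 200.9 and 138.2. So were miR-126a-3p of endothelium (176.9 and 132.5) and miR-223-3p of platelets and myeloid cells (203.6 and 166.0). Of the 3 muscle miRNAs, miR-133a-3p (241.7 and 204.4) and miR-1a-3p (124.5 and 151.5) were detected in both strains, the second with the higher raw intensity in BALB/c, and miR-206-3p (104.0 and 98.81) in neither. The liver miRNA miR-122-5p was detected in C57BL/6 only, at 2.75 SD there and nearly equal raw intensities (108.3 and 109.1). The neuronal miR-124-3p (98.56 and 103.4) and miR-9-5p (91.57 and 99.14) were detected in neither, and miR-128-3p, which neurons also express, in C57BL/6 only (114.8 and 109.7).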

How the data were processed

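The authors labelled the EV RNA with Cy5 and read it on 3D-Gene miRNA oligo chips. The deposited scanner output gives the median intensity of each of 3200 spots and of its surroundings, not subtracted or normalized. The authors' table gives 1 linear intensity per detected miRNA. From its values, it is the spot intensity minus the trimmed BLANK mean, multiplied by 1.26 on the C57BL/6 array and by 1.06 on the other, with 0 detection calls that differ from those used here. The background was the mean of 896 BLANK spots without the highest and lowest 45. Ratios were formed after background subtraction, and no count of reads or depth exists for arrays, whose number (1 per strain) limits the precision. The rule for names took all 40 members, of the other miRNAs of the region those detected, and outside it only fixed markers. The undetected other arms and the miRNAs that share a member's seed were named outside it, after their values were seen. The members and lists were chosen with earlier results of these data known. RefSeq tables of GRCm38.p6 gave sequences, gene order and gene bounds. The alternatives were 3 SD, untrimmed BLANK spots, the authors' table, surroundings subtracted, scaling before detection, 3 other scalings, and normexp with an offset of 50 and quantile normalization. Python 3.11.15 (numpy 2.4.6, pandas 2.3.3, scipy 1.17.1) and R 4.3.3 with limma 3.58.1 were used.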

Additional observations from a re-analysis of the deposited data

How the results depend on the processing

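The numbers of members detected in C57BL/6, in BALB/c, in both and only in C57BL/6 were 11, 2, 2 and 9. They were the same in the authors' table. At 3 SD they were 7, 0, 0 and 7, with no BLANK spots left out 8, 1, 0 and 8, with the surroundings subtracted 4, 0, 0 and 4, and with the C57BL/6 signals divided by the shared factor before detection 2, 2, 1 and 1. A stricter threshold leaves out dim spots by construction. The log2 ratio of miR-434-3p was -2.56 and turned to 0.11 in the authors' table, which multiplies all ratios by 1 factor. That of miR-370-3p was 1.23 and ran from 0.44 with normexp and quantile normalization to 3.91 in the authors' table, within the range of the spot noise. At 3 SD neither could be formed. The number of members with a lower bound above 1 was 1, and it was 9 in the authors' table, 8 with no scaling, 1 with the median of the shared miRNAs and 2 at 3 SD, where miR-370-3p joined miR-665-3p. The 9 in the authors' table were fixed in advance, since every miRNA detected only in C57BL/6 has such a bound there. The 8 with no scaling were nearly so. The lowest detected C57BL/6 signal (7.25 units) was only just under the denominator of 8.08 units. The GC content of detected members exceeded that of undetected ones by 12.7 percentage points, by 18.8 at 3 SD and by 19.7 with no BLANK spots left out. No paired analysis was possible because each strain had 1 array. On both arrays, members 2 to 3 SD above the BLANK mean lay where BLANK spots were found too. These were 4 on the C57BL/6 array and 2 on the BALB/c array, and this limits what can be said of them. Some BLANK spots were also at least as bright as the 5 C57BL/6 members between 3 and 10 SD.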

Other observations

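Of the 37 members with a sequence, 8 shared their seed with another miRNA on the array, 9 such miRNAs in all. Of these 9, 2 were detected in C57BL/6 (all miRNAs, 33.6%) and 0 in BALB/c (all miRNAs, 9.84%). miR-7221-3p, which has the seed GACUGUG of the undetected member miR-679-5p, had an intensity of 125.0 in C57BL/6 and 106.2 in BALB/c. miR-6985-3p, which has the seed of the undetected member miR-673-5p, had 108.0 and 104.4. Inside the region, miR-379-5p, detected in C57BL/6 at 110.8, shared its seed with miR-1193-5p, which was not detected at 97.35.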
